A study of Mus musculus with 10 samples.

Results

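Dual-specificity MAP kinase phosphatases were followed in mouse dendritic cells given AMLE (apple mango leaf extract) or DMSO. The 9 genes were chosen by symbol (Dusp1, Dusp2, Dusp3, Dusp4, Dusp5, Dusp6, Dusp7, Dusp10 and Dusp16) from a count table of 24385 gene symbols. All 9 had a row and all 9 passed the low-count filter that left 13075 genes for testing. The cells were grown from bone marrow of wild-type female C57BL/6 mice aged 8 to 10 weeks, in culture for 7 days with 20 ng/mL of the growth factor GM-CSF, and non-adherent immature cells were taken on day 6. The treated group received 400 µg/mL AMLE for 24 h and the control group received 0.04% DMSO for 24 h. Gene expression was read by stranded poly(A) RNA sequencing in 3 AMLE and 3 DMSO libraries, and open chromatin by ATAC sequencing, which marks DNA reached by the Tn5 transposase, in 2 AMLE and 2 DMSO libraries of 100000 cells each. Whether replicates are different animals or cultures is not in the labels; p-values therefore cover only the spread among these libraries, which may be technical.

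MAP kinases (ERK, JNK and p38) carry signals from growth factor and microbe receptors, and are active only while a threonine and a tyrosine in their activation loop are phosphorylated. Dual-specificity phosphatases remove both phosphates and so switch the kinases off, and many of their genes are themselves switched on by the kinases they oppose. Inducible nuclear members, cytoplasmic members selective for ERK, and members selective for JNK and p38 form the main classes of the family. In mouse macrophages and dendritic cells, Dusp1 is known for limiting p38 signalling and inflammatory cytokine production.

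RNA libraries held 26010455 to 34208286 counts. Levels are given as CPM, counts scaled to a common library size, and are compared between libraries for a given gene and not between genes, since no transcript lengths were at hand. AMLE replicate 3 lay nearest to the DMSO libraries on the leading principal component of all tested genes, at −23.0 against −38.3 and −46.5 in the other AMLE libraries and 31.1 to 42.0 in the DMSO libraries. Markers of dendritic cells were present, with Cd74, the invariant chain of MHC class II, at 3205 ± 322 CPM in AMLE and 3931 ± 885 in DMSO (SD, n = 3 each). The 10 dendritic cell markers summed to 7916 to 8963 CPM in AMLE and 6614 to 9932 in DMSO; 5 were called higher, with Flt3 at a log2 fold change of 2.27 and Irf8 at 1.88, and 1 lower (H2-Ab1, −0.70, not called in 5 of the alternatives). The 9 neutrophil and precursor markers summed to 8740 to 12198 CPM in AMLE and 13422 to 21335 in DMSO, and 7 of them were called lower and 0 higher. Summed macrophage markers (10 genes) ran from 1054 to 1768 CPM in AMLE against 1716 to 1993 in DMSO, with Csf1r the most abundant. Of these 10 genes, 1 was called higher and 6 lower, among them the complement genes C1qa (−4.99), C1qb (−4.52) and C1qc (−4.55). In the same order of groups, mast cell and basophil markers (8 genes) summed to 348 to 671 against 214 to 364, eosinophil markers (4 genes) to 1751 to 2304 against 1265 to 1934, and lymphocyte markers (7 genes) to 18.8 to 27.7 against 18.2 to 26.8. Called higher were 4 of 8 mast cell and basophil markers, 2 of 4 eosinophil markers and 0 of 4 tested lymphocyte markers. In each of these lists 0 were called lower. Over all tested genes, 23.0% were called higher and 25.6% lower. No marker gene in these lists was at 0 in all libraries. In such bulk samples, fewer cells of a type and less RNA per cell cannot be told apart, and the part of cell makeup in the changes below was not tested.

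Of the 9 phosphatase genes, 5 were called higher and 1 lower in AMLE at an edgeR adjusted p below 0.05. Among all 13075 genes tested, 23.0% were called higher and 25.6% lower. The genes that rose were Dusp1, Dusp4, Dusp5, Dusp10 and Dusp16, and Dusp7 fell, while Dusp2, Dusp3 and Dusp6 did not pass. Of these, Dusp1, Dusp4 and Dusp5 changed at least 2-fold, all higher. Among all genes tested, 5.52% were called at least 2-fold higher and 4.40% at least 2-fold lower. The median log2 fold change of the 9 genes was 0.40, against −0.01 over all genes tested. The groups did not overlap for the 6 called genes and overlapped for the other 3, and 59.7% of all tested genes did not overlap.

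**Figure D1:**
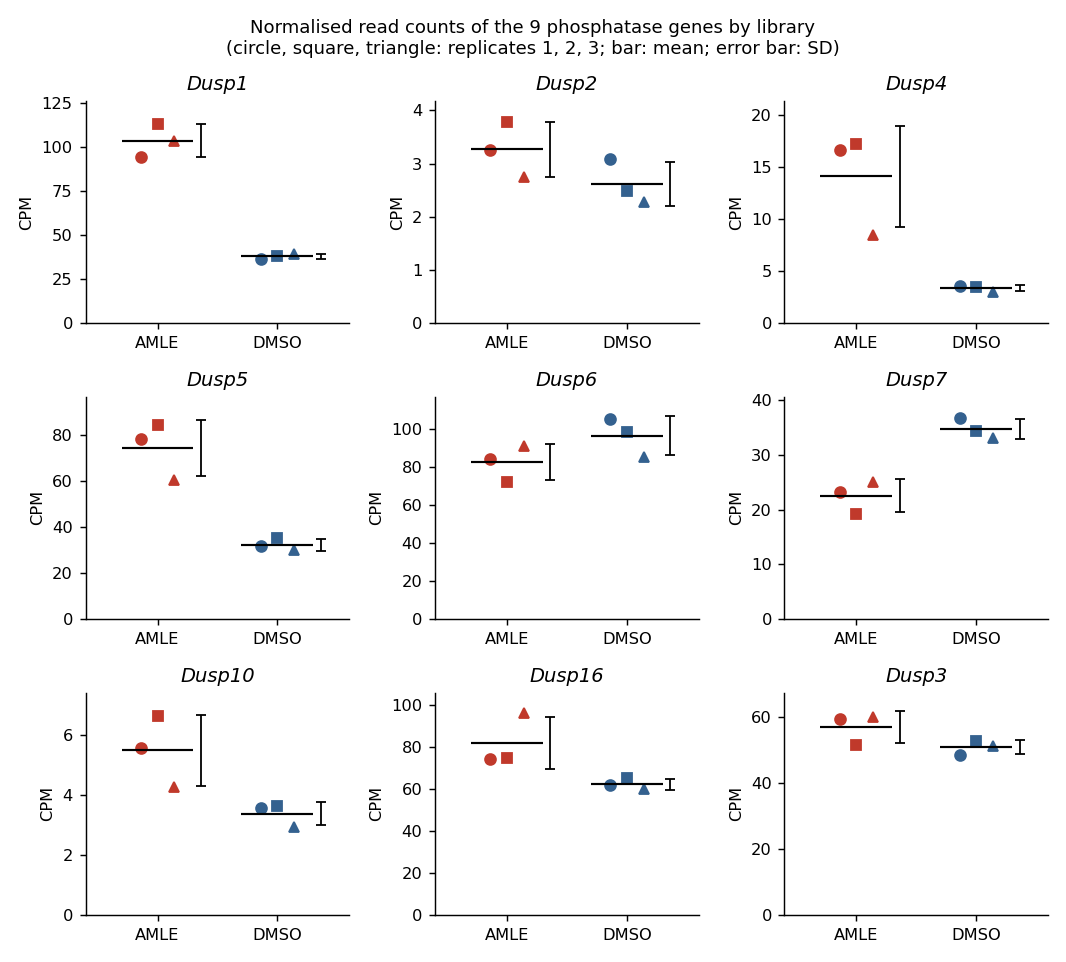
Normalised read counts (CPM) of the 9 phosphatase genes in each RNA library, with 3 AMLE libraries on the left and 3 DMSO libraries on the right of each panel; symbols are replicates 1, 2 and 3, bars are means and error bars SD. The AMLE libraries lie wholly above the DMSO libraries for Dusp1, Dusp4, Dusp5, Dusp10 and Dusp16 and wholly below for Dusp7.

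Dusp1 (gene ID 19252), the classical immediate-early phosphatase of the nucleus also called MKP1 rose after AMLE. Its level in AMLE replicates 1 to 3 was 94.3, 113 and 103 CPM, against 36.4, 37.96 and 39.3 CPM in DMSO replicates 1 to 3. Every AMLE library held more than any DMSO library, and the DMSO libraries lay close together. Its mean was 104 ± 9.35 CPM in AMLE and 37.9 ± 1.49 in DMSO (SD, n = 3 each), which is 2.73-fold higher. The log2 fold change was 1.45 with an SE of 0.07, and the edgeR adjusted p was 3.3e-05; later values after ± in log2 units are SE. Its size lay at percentile 95.1 of the absolute log2 changes of all tested genes.

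Dusp4 (319520), also called MKP2, a nuclear phosphatase of ERK and JNK, had the largest change of the 9 genes in log2 terms. AMLE replicates 1 to 3 held 16.7, 17.2 and 8.48 CPM and DMSO replicates 1 to 3 held 3.53, 3.51 and 3.00 CPM. Replicate 3 was the lowest of the AMLE libraries, yet above each DMSO library. The mean was 14.1 ± 4.87 CPM in AMLE and 3.35 ± 0.302 in DMSO, which is 4.22-fold higher (2.08 ± 0.28; edgeR adjusted p = 0.0012). Without AMLE replicate 3 the log2 fold change was 2.35.

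Dusp5 (240672), a nuclear phosphatase that acts on ERK and holds it in the nucleus also rose. The AMLE libraries held 78.3, 84.5 and 60.7 CPM and the DMSO libraries 31.9, 35.1 and 29.9 CPM. Again AMLE replicate 3 was the lowest of its group and remained above the DMSO range. The means were 74.5 ± 12.3 CPM in AMLE and 32.3 ± 2.63 in DMSO, which is 2.31-fold higher (1.21 ± 0.13; edgeR adjusted p = 4.8e-04).

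Dusp2 (13537), also called PAC1, is a nuclear phosphatase found mainly in blood cells. It was at 3.26, 3.79 and 2.75 CPM in AMLE and 3.08, 2.49 and 2.27 CPM in DMSO, so that the groups overlapped. Its log2 fold change was 0.32 ± 0.19 (edgeR adjusted p = 0.19). Among the 4 nuclear inducible genes it was the only member that was not called. It had 66 to 130 counts per library.

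The promoters of Dusp1 and Dusp5 are shown because these nuclear members rose and carried an ATAC peak over the gene start in all 4 chromatin libraries. They run from 250 bases before to 50 bases after the RefSeq start (GRCm38.p6, the build of mm10), and are written 5′ to 3′ on the strand of the gene. In capitals are matches to the cAMP response element (CRE, TGACGTCA), the E-box (CACGTG) and the CArG box, which is the site bound by serum response factor. Dusp1 lies on chromosome 17 (minus strand) and its promoter is chr17:26508423-26508722; Dusp5 lies on chromosome 19 (plus strand) and its promoter is chr19:53528895-53529194.
Dusp1: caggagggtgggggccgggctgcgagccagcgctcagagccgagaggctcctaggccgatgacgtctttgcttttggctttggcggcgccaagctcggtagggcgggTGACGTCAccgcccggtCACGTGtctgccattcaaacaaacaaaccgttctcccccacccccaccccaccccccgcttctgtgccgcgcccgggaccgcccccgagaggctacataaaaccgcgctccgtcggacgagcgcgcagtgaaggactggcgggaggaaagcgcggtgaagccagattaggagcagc
Dusp5: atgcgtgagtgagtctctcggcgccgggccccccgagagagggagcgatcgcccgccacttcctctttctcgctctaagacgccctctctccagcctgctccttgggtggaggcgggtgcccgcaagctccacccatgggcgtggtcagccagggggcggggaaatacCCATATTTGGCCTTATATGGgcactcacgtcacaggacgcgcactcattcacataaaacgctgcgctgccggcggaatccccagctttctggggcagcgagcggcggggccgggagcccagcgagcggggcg
Dusp1 held a CRE starting 143 bases and an E-box starting 126 bases before the start, and Dusp5 held 2 CArG boxes side by side, CCATATTTGG and CCTTATATGG, starting 82 and 72 bases before it. Of 32851 promoters of the same length, 1.79% held a CRE, 7.15% an E-box and 1.63% a CArG box, searched on both strands. Among the 8 phosphatase promoters in the table, a CRE was found in 1, a CArG box in 1 and an E-box in 2 (Dusp1 and Dusp2). The AP-1 motif (TGANTCA), the TATA box (TATAAA), the ETS motif (CCGGAAG) and the NF-kB motif were in none of the 8, and were in 7.81%, 13.6%, 8.86% and 8.46% of all promoters. These are matches of letters, and no factor binding was measured.

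Both ERK-selective cytoplasmic genes had negative log2 fold changes, of which that of Dusp7 was called. Dusp7 (235584), a cytoplasmic ERK phosphatase, held 23.3, 19.3 and 25.1 CPM in AMLE and 36.8, 34.4 and 33.1 CPM in DMSO. Each AMLE library was below each DMSO library. The mean was 22.6 ± 3.01 CPM in AMLE and 34.8 ± 1.88 in DMSO, and the log2 fold change was −0.63 ± 0.10 (edgeR adjusted p = 0.0023).

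Dusp6 (67603), also called MKP3, the best-known cytoplasmic ERK phosphatase and itself a gene induced by ERK signalling, was at 84.5, 72.4 and 91.1 CPM in AMLE and 105, 98.7 and 85.5 CPM in DMSO. AMLE replicate 3 lay above DMSO replicate 3, so the groups overlapped. The log2 fold change was −0.23 ± 0.11 (edgeR adjusted p = 0.12). Without AMLE replicate 3 Dusp6 was called lower (−0.29, adjusted p = 0.048), and over the other alternatives its adjusted p ran from 0.051 to 0.31. The RefSeq span of Dusp6 overlaps that of Gm34921, and how reads were assigned there is not given in the sources used here.

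The promoters of the 2 ERK-selective genes are printed in the same way for comparison with the pair above. Dusp6 lies on chromosome 10 (plus strand; chr10:99262981-99263280) and Dusp7 on chromosome 9 (plus strand; chr9:106368382-106368681).
Dusp6: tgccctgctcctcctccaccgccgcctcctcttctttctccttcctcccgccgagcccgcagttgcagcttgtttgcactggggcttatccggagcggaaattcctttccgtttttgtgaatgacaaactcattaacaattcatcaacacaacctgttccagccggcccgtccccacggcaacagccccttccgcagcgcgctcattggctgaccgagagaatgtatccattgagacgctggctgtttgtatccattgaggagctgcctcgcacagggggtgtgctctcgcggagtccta
Dusp7: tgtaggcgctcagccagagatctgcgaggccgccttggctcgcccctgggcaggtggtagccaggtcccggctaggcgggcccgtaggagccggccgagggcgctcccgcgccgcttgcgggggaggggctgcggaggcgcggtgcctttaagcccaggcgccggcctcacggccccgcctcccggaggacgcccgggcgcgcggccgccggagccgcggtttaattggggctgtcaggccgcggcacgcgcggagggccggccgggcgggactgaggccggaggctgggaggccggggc
Neither held a match to any of the 7 motifs named above (CRE, E-box, CArG box, AP-1, TATA box, ETS and NF-kB), so both stand in lower case; the GC box (GGGCGG), found in 7 of the 8 promoters and 35.7% of all, was not marked. Dusp7 had the most GC-rich promoter of the 8, with 78.7% G or C and 41 CpG pairs, and Dusp6 the least, with 57.3% and 19. The median over all promoters was 52.7% and 7 CpG pairs. Dusp1 and Dusp5 lay between, at 67.0% with 31 and 66.7% with 28.

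The JNK- and p38-selective genes both rose after AMLE, with log2 fold changes of 0.70 and 0.40. Dusp10 (63953), also called MKP5, held 5.55, 6.62 and 4.24 CPM in AMLE and 3.56, 3.62 and 2.93 CPM in DMSO. The groups did not overlap, although AMLE replicate 3 came near the DMSO libraries. Its log2 fold change was 0.70 ± 0.19 (edgeR adjusted p = 0.018). That call was lost without AMLE replicate 1 (0.71, adjusted p = 0.055), AMLE replicate 2 (0.54, 0.056) or DMSO replicate 3 (0.61, 0.056).

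Dusp16 (70686), also called MKP7, a JNK phosphatase that moves between cytoplasm and nucleus, held 74.4, 74.8 and 96.1 CPM in AMLE and 61.6, 64.9 and 59.8 CPM in DMSO. Here AMLE replicate 3 was the highest library, not the lowest as for Dusp4, Dusp5 and Dusp10. The rise was 1.32-fold (0.40 ± 0.10; edgeR adjusted p = 0.018). It was not called without DMSO replicate 1 (0.39, adjusted p = 0.060) or DMSO replicate 3 (0.37, 0.059). The span of Dusp16 overlaps 1700055D16Rik and Gm36328 in RefSeq.

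Dusp3 (72349), also called VHR, is a small atypical phosphatase without the kinase-binding domain of the others, and acts on ERK and JNK. It was at 59.3, 51.4 and 60.0 CPM in AMLE and 48.6, 52.8 and 51.1 CPM in DMSO, with overlap through AMLE replicate 2. The log2 fold change was 0.16 ± 0.07 (edgeR adjusted p = 0.10), and without AMLE replicate 2 it was 0.24 (adjusted p = 0.019).

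**Figure D2:**
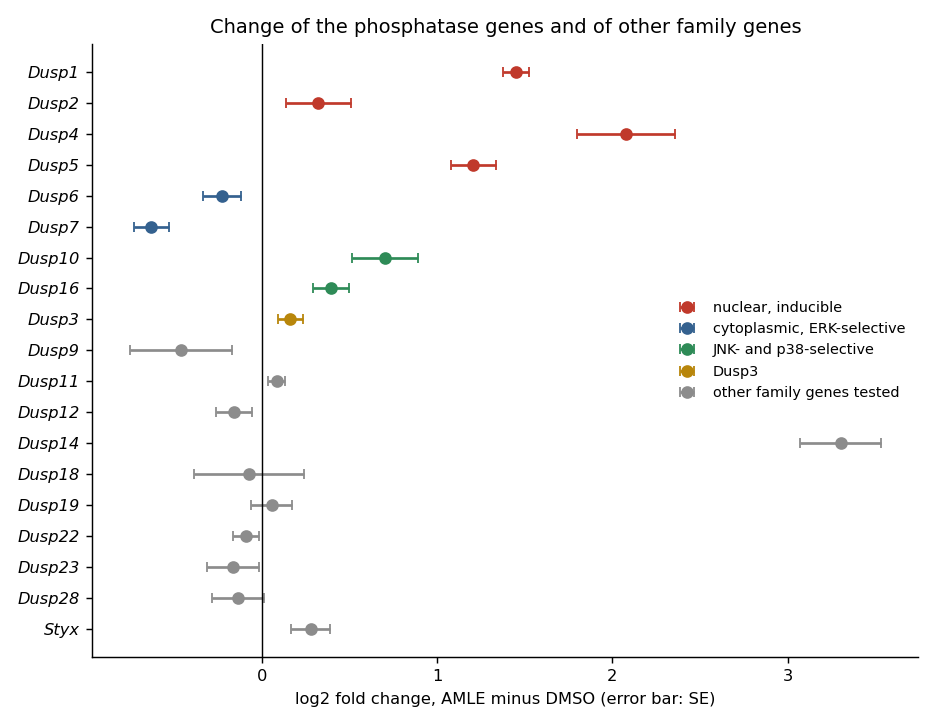
Log2 fold change, AMLE minus DMSO, with SE, for the 9 phosphatase genes by class and for the 10 other tested genes of the family in grey (3 libraries per group). Dusp4, Dusp1 and Dusp5 lie at 2.08, 1.45 and 1.21, Dusp7 at −0.63, and of the grey genes Dusp14 stands apart at 3.30.

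The nuclear genes together (Dusp1, Dusp2, Dusp4 and Dusp5) summed to 193, 218 and 175 CPM in AMLE replicates 1 to 3 and to 74.9, 79.1 and 74.5 CPM in the DMSO replicates. The cytoplasmic genes (Dusp6, Dusp7, Dusp10 and Dusp16) summed to 188, 173 and 217 CPM in AMLE and to 207, 202 and 181 CPM in DMSO. The nuclear sums of the groups were far apart. The cytoplasmic sums overlapped with Dusp10 and Dusp16 counted in, and both of these rose while Dusp6 and Dusp7 had negative log2 fold changes. Dusp10 and Dusp16 were placed in the cytoplasmic class, though both also move to the nucleus. The ratio of nuclear to cytoplasmic CPM was therefore 1.03, 1.26 and 0.809 in AMLE and 0.361, 0.392 and 0.411 in DMSO, or 1.03 ± 0.227 and 0.388 ± 0.0253 on average. With Dusp6 and Dusp7 alone as the cytoplasmic class, it was 1.89 ± 0.448 in AMLE and 0.583 ± 0.052 in DMSO. These sums weight each gene by its counts and describe RNA, not protein or its place in the cell, and the ratio was given no test.

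A few genes gave most of the counts in these sums, which are not scaled for transcript length. Dusp1 gave 49.0% to 59.0% of the nuclear sum in the AMLE libraries and 48.0% to 52.8% in the DMSO libraries, and Dusp5 gave 34.6% to 40.7% and 40.1% to 44.4%. Dusp4 gave 4.84% to 8.65% in AMLE and 4.02% to 4.71% in DMSO. In the cytoplasmic sum, Dusp6 gave 41.8% to 45.0% in AMLE and 47.2% to 50.9% in DMSO, while Dusp16 gave 39.6% to 44.4% and 29.7% to 33.0%. Within the cytoplasmic class the members thus differed in sign: of 4 genes, 2 rose and 1 fell. Over all 9 genes the sum was 440, 443 and 452 CPM in AMLE and 331, 333 and 307 CPM in DMSO.

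**Figure D3:**
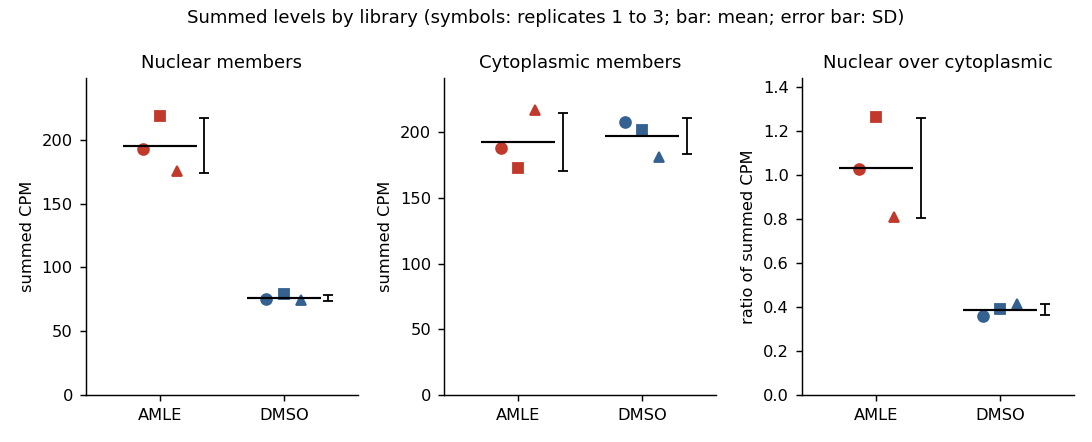
Summed CPM of the 4 nuclear and the 4 cytoplasmic phosphatase genes, and the ratio of the sums, in each RNA library, with AMLE left of DMSO; symbols are replicates 1, 2 and 3, bars are means and error bars SD. The nuclear sums average 195 CPM in AMLE and 76.1 in DMSO, and the cytoplasmic sums 192 and 197.

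By Pearson correlation of log2 CPM over the 6 libraries, the genes most like Dusp4 were D730005E14Rik, Diap1 and Inhba (r of 0.999 each, among 8964 genes with a mean of at least 10 CPM). Inhba, which encodes a subunit of activin A, stood at 55.4 CPM in AMLE and 20.5 in DMSO on average (log2 fold change 1.44), while Diap1 differed little in size, at 415 and 398 CPM. The genes most like Dusp6 were Gnai2 (r = 0.986), Shoc2 (0.984) and Wwp2 (0.982), none of them called. The 6 libraries fall into 2 treatment groups, so these values are descriptions.

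Open chromatin was found in or within 10 kb of every phosphatase gene in both groups. In the 4 ATAC libraries, 85.0% to 88.7% of 12505 RNA-tested genes with coordinates also had a peak in that window. Each ATAC library gave a list of peaks, 15805 and 15597 distinct intervals in AMLE and 18460 and 19225 in DMSO, and read depth is not known. Between 10 kb before and 10 kb after the 9 genes lay 16 and 19 intervals in AMLE replicates 1 and 2 and 17 and 20 in DMSO replicates 1 and 2. That is 1.78 and 2.11 per gene in AMLE and 1.89 and 2.22 in DMSO, against means of 1.44 and 1.44, and 1.63 and 1.68, over 12505 RNA-tested genes with coordinates. Merged across libraries they made 23 regions, of which 12 were present in all 4 libraries and 4 in only 1. No region was present in both AMLE libraries and absent from both DMSO libraries, and none had the opposite pattern (0 each). With a −log10 q of at least 5, 19 regions remained, 9 of them in all 4 libraries, and again 0 in each of those patterns; the regions lost from all 4 were the Dusp4 peak (absent in AMLE replicate 1), the Dusp5 region inside the gene (AMLE replicate 1) and the upstream Dusp1 region (DMSO replicate 2). With 2 libraries per group, no test between the groups was made. How often regions of the whole peak lists show these patterns was not worked out, so the counts describe these 23 regions alone.

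Within 1 kb of the start, all 8 phosphatase genes with an annotated RefSeq start had a peak in both AMLE and in both DMSO libraries. Of 9978 RNA-tested genes in the promoter table, 69.6% had a peak there in both AMLE libraries and 72.6% in both DMSO libraries; over all 27025 genes of that table the shares were 30.9% and 32.5%. Dusp4 was not in the promoter table and is given by its lower coordinate (chromosome 8, position 34807610), within 1 kb of which a peak lay in all 4 libraries. A single start was used per gene. The RefSeq spans of Dusp7, Dusp16 and Dusp3 reach further upstream than that start, to positions 106368560, 134807063 and 101987013. Further starts were not examined. In 3 libraries the Dusp7 peak ended just before the start used, and in DMSO replicate 2 it reached past it. In AMLE replicates 1 and 2 the Dusp7 peak did reach into the RefSeq span. Dusp16 was the exception among starts: a peak over or just before the start was found in both AMLE libraries and DMSO replicate 2, but not in DMSO replicate 1. The interval of DMSO replicate 1 within the window began 967 bases into the gene. It lay in a separate region that AMLE replicate 2 and DMSO replicate 2 held as well as their start peaks. With a window of 500 bases, 8 genes had a peak in both AMLE libraries and 7 in both DMSO libraries.

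**Figure D4:**
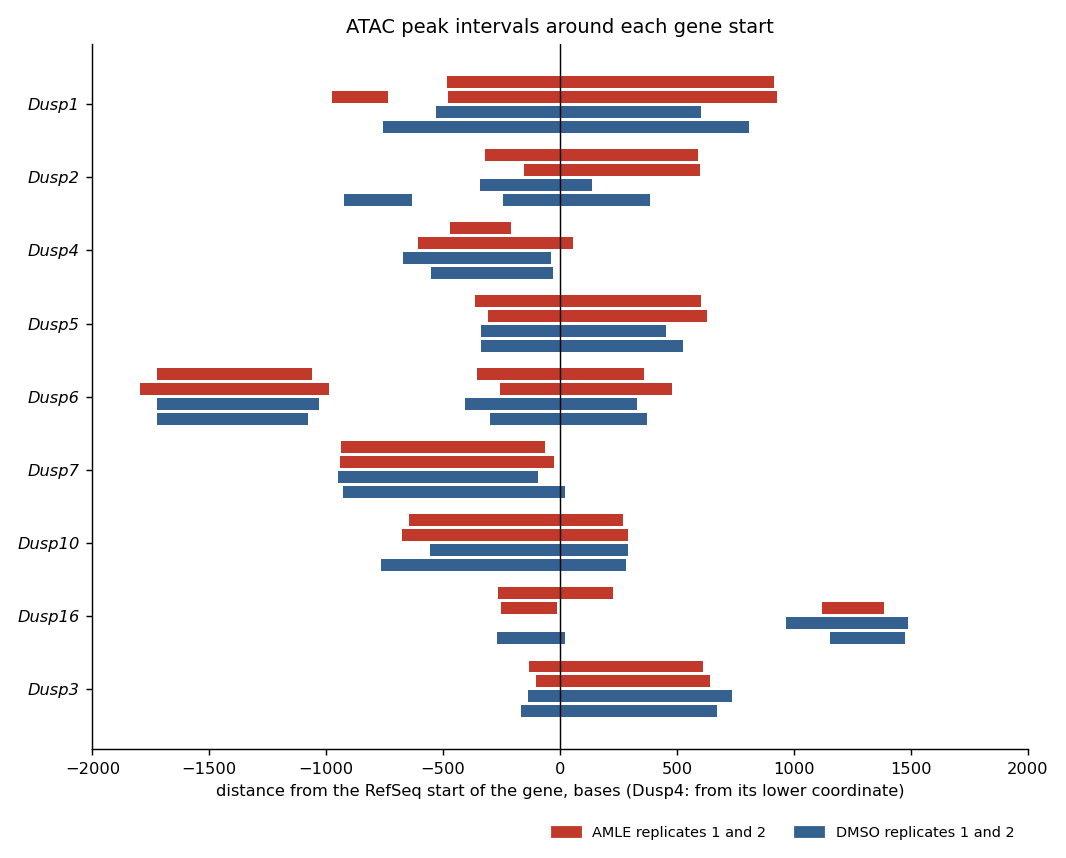
ATAC peak intervals of each library around the start of the 9 phosphatase genes, by distance from the RefSeq start in the direction of the gene (for Dusp4, from its lower coordinate); AMLE replicates 1 and 2 are above DMSO replicates 1 and 2. The interval nearest each start covers it or ends shortly before it, except for Dusp16 in DMSO replicate 1, whose nearest interval begins 967 bases after it. Further intervals lie away from the starts, among them that downstream Dusp16 region in AMLE replicate 2 and DMSO replicate 2.

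Peak height, the authors' fold enrichment over local background, set the members apart within each list. At the Dusp5 start it was 13.0 and 14.4 in AMLE and 14.6 and 16.4 in DMSO, which placed it at percentile 86.7 to 92.9 of its list in each library. Dusp10, a gene of few counts, also had a high peak (12.2 and 14.1 in AMLE, 15.0 and 14.7 in DMSO). Dusp4 and Dusp16 had the lowest peaks. That of Dusp4 was at 3.89 and 4.99 in AMLE and 5.52 and 6.96 in DMSO, or percentile 11.9 to 41.1. That of Dusp16 was at 4.86 and 4.47 in AMLE and 6.00 in DMSO replicate 2, or percentile 18.2 to 32.2. DMSO replicate 1 had no Dusp16 peak over or just before the start, and its interval further into the gene was at 4.05. The Dusp1 peak was broad and of middle height (7.55 and 7.15 in AMLE, 6.61 and 7.01 in DMSO), 1401 and 1409 bases wide in AMLE and 1136 and 1568 in DMSO. Dusp6 (10.9 and 10.2; 12.2 and 12.3), Dusp7 (9.85 and 6.82; 10.0 and 10.3), Dusp2 (7.32 and 8.15; 6.84 and 9.14) and Dusp3 (6.79 and 7.57; 8.89 and 7.65) fell between these, each given as AMLE and then DMSO.

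Away from the starts, Dusp1 had a region from −6723 to −6245 bases relative to its start and another 10492 to 11153 bases after it, beyond its end, in all 4 libraries. Dusp5 had a region 7061 to 8113 bases inside the gene, and Dusp6 one from −1796 to −987 bases relative to its start, also in all 4. Past its end Dusp6 had 2 further regions, 5371 to 5868 and 7158 to 7490 bases from the start, each in 1 AMLE library and both DMSO libraries. Relative to its start, Dusp16 had regions from 967 to 1487 and from −4045 to −3735 bases, each in 1 AMLE library and both DMSO libraries. Another Dusp16 region, from −10427 to −9986, and a Dusp3 region from 12142 to 12722 were each in 1 library of either group. The Dusp16 regions before the start used lay inside its RefSeq span. Dusp7, Dusp4, Dusp2 and Dusp10 had no second region in more than 1 library within these limits.

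Beyond the 9 genes, the pathway was described by 10 lists of 120 names, of which 119 had a row and 106 were tested. Of these 25 were called higher and 24 lower, 57 were not called, and the median log2 fold change was 0.02. That is close to the shares of all tested genes given above. Of the 10 other family genes tested, 1 was called higher and 0 lower by edgeR, and 0 were lower with DESeq2, with limma-voom or at an unadjusted p under 0.05. That gene was Dusp14, an atypical phosphatase, with 137, 148 and 126 counts in AMLE replicates 1 to 3 and 13, 19 and 11 in DMSO replicates 1 to 3 (log2 fold change 3.30 ± 0.23; edgeR adjusted p = 9.1e-05). With a replicate block, without the count filter, and without each library but AMLE replicate 3, 2 were called higher. Dusp8, a JNK- and p38-selective member under the count filter, had 12, 11 and 12 counts in AMLE and 3, 1 and 2 in DMSO, and was singled out after its values were seen.

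The counts in the following lists are to be read against 23.0% called higher and 25.6% called lower over all tested genes, and none is set apart from those shares by a test. Among the listed MAP kinase genes, 2 of 11 tested were called higher and 2 lower. The log2 fold changes were 0.06 for Mapk3, an ERK gene, and 0.01 and −0.04 for the JNK genes Mapk8 and Mapk9, and these 3 were not called. Mapk14 (p38 alpha) fell (−0.34 ± 0.07). Mapk13 (p38 delta) also fell (−0.72 ± 0.13), while Nlk (0.42 ± 0.07) and Mapk11 (p38 beta) rose. Mapk11 had 14, 33 and 11 counts in AMLE and 4, 11 and 6 in DMSO (1.46 ± 0.49; edgeR adjusted p = 0.042), and its call was lost with DESeq2 (adjusted p = 0.054), without AMLE replicate 1 or 2 (0.071 and 0.15) and without DMSO replicate 1 or 3 (0.13 and 0.11). Of 7 MAP2 kinases 1 rose, Map2k1 of the ERK branch (0.34), and 2 fell, among them Map2k4 of the JNK branch (−0.32). Of 21 MAP3 kinases 5 rose and 4 fell, with Map3k10 at 0.75, Map3k5 at −0.54, Map3k9 at −0.41, Map3k4 at −0.34 and Zak at −0.27. Of 10 kinases activated by MAP kinases 1 rose (Mknk2, 0.32) and 3 fell, with Rps6ka3 at −0.41, and 3 rose with a replicate block. Of 7 other phosphatases that act on MAP kinases 2 rose (Ppm1b at 0.15) and 2 fell (Ptpn7 at −0.64 and Ptprr at −1.65). Ptprr had only 3, 9 and 8 counts in AMLE and 11, 32 and 22 in DMSO.

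Of 19 genes listed as induced by ERK or as feedback inhibitors of its pathway, 5 rose and 4 fell. That is near the 23.0% and 25.6% of all tested genes, and with a replicate block 8 rose and 5 fell. Egr1 rose (1.12 ± 0.24), whereas Ccnd1, which encodes cyclin D1, fell (−2.13 ± 0.18), as did Myc (−0.71), Etv4 (−1.11) and Etv5 (−0.36). Etv4 had only 9, 6 and 4 counts in AMLE and 14, 13 and 16 in DMSO. Of 6 JNK target factors 3 rose, with Atf3 at 1.29 and Junb at 0.87, and Elk1 fell (−0.24). Of 7 mRNA-binding proteins tied to p38, 2 rose (Zfp36 at 0.57 and Zfp36l1 at 0.62) and 4 fell, with Zfp36l2 at −0.85. Of 8 genes induced by glucocorticoids, as Dusp1 is, 3 rose, with Sgk1 at 1.03, and 2 fell, Cebpd (−0.77) and Fkbp5 (−0.72). The calls for Etv4, Ptprr, Map3k9, Ppm1b and Myc were each lost in 3 or more of the alternatives, as given with the limits.

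**Figure D5:**
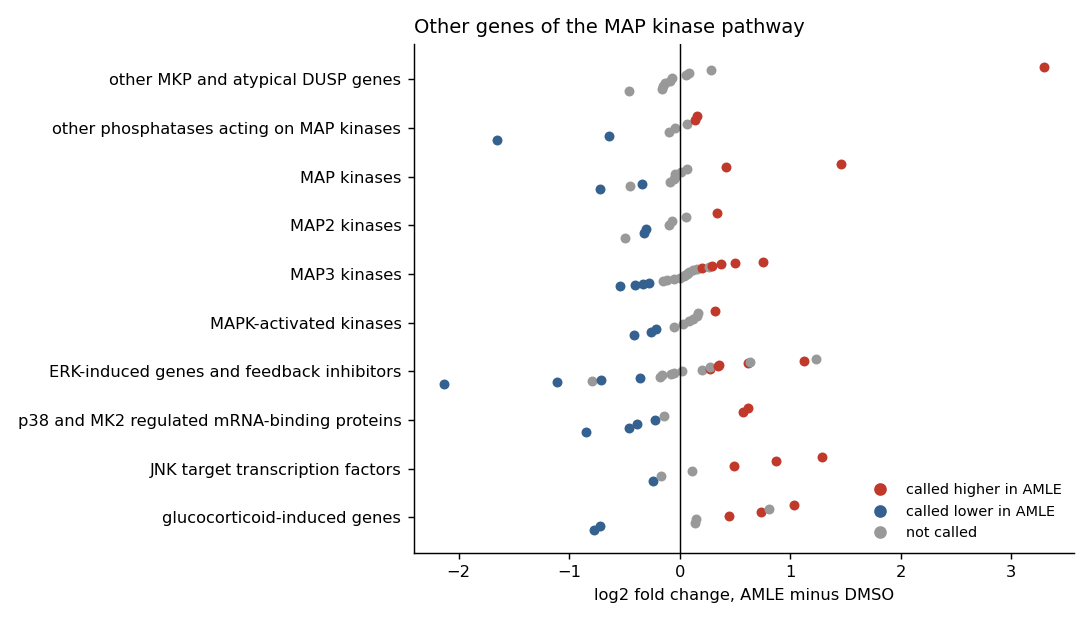
Log2 fold change, AMLE minus DMSO, of the 106 tested genes in 10 lists of MAP kinase pathway genes, coloured by edgeR call (adjusted p below 0.05). Called genes lie on both sides of 0 in 9 lists, and in the list of other family genes Dusp14 is the only called gene, at 3.30.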

How the data were processed

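Per the labels, RNA libraries were made with a stranded poly(A) kit and ATAC libraries with a Tn5 kit. Tools listed in the submitters' processing notes include MACS3 3.0.0a7, Bowtie2 2.4.4 and STAR 2.7.11b, with mm10 as build; the step each served, the read counting (strand included) and the peak calling settings are not stated there or in the labels. The authors deposited raw read counts per gene symbol. The authors also deposited peak lists per library holding, for each summit, a −log10 q and a ratio (fold enrichment); summits of the same interval were merged.

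Counts were tested with edgeR 4.0.16 in R 4.3.3 (TMM, default filter with minimum count 10, robust quasi-likelihood F test, two-sided) on 3 AMLE and 3 DMSO libraries, adjusted by Benjamini-Hochberg over 13075 genes. SE was taken as |log2 fold change| / √F. The test was tested on simulated data. This main fit held the group alone and was not paired. Same-numbered libraries deviated together (correlations 0.29, 0.28 and 0.43), so the numbers were taken as pairing the samples in the replicate block, an alternative only. AMLE replicate 1 with DMSO replicate 2, and AMLE replicate 2 with DMSO replicate 1, were also positive, at 0.11 each. Pairs of a replicate 3 with a replicate 1 or 2 ran from −0.31 to −0.27. Genes were located with RefSeq (GRCm38.p6), which gave the promoter sequences of 8 of the 9 genes. A peak was at a start when it overlapped the window of 1 kb to either side by 1 base. Alternatives were RLE factors, DESeq2, limma-voom, no filter, a replicate block, each library left out, and other peak windows and thresholds. Outside the 9 genes, named genes are the 2 with the largest called change per list (mean CPM of at least 1), those called against their list's majority, and the most abundant marker; like genes are given for the member with the largest change (Dusp4) and that with the highest CPM averaged over all 6 libraries (Dusp6). Others were named after their values were seen, to complete a count or describe a marker list. The 9 genes and the lists were chosen with earlier results of these data known. Spry3 and Ly6g were not used here, and Map3k20 was read under its older symbol Zak. The values of 1 listed kinase gene are not reported here.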

Additional observations from a re-analysis of the deposited data

How the results depend on the processing

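The 6 called phosphatase genes were called in the same direction with RLE factors, DESeq2, limma-voom, no low-count filter and a replicate block, so that 5 were higher and 1 lower in each. With the replicate block 7247 genes were called in all, against 6350 without it, and the block changed no call among the 9 genes. When each RNA library was left out in turn, the genes called higher numbered 3 to 5, with 3 without DMSO replicate 3, and those called lower 1 to 2, with 2 without AMLE replicate 3. Dusp1, Dusp4, Dusp5 and Dusp7 were called in every fit. Of 99 alternative values for the 9 genes, 92 kept their side of the threshold, 5 (of Dusp10 and Dusp16) were lost, 2 (Dusp6 and Dusp3) were gained and 0 changed sign. Of 329 for the other named genes, 25 were lost and 0 changed sign; those for Etv4 (adjusted p up to 0.14), Ptprr (0.11), Map3k9 (0.11), Ppm1b (0.11) and Myc (0.086) were most often affected. The cause was not tested. The ratio of nuclear to cytoplasmic CPM with Dusp6 and Dusp7 alone as cytoplasmic was 1.89 in AMLE and 0.583 in DMSO. With all 4 cytoplasmic genes and each library left out in turn, the ratio was 0.917 to 1.14 in AMLE and 0.376 to 0.402 in DMSO. Intervals near the 9 genes averaged 17.5 per AMLE and 18.5 per DMSO library, and 30.0 and 34.5 with 50 kb flanks. Within gene bodies they averaged 12.0 and 11.0, so that there the AMLE mean was the higher. The length searched differed between these settings. The ratio per kb of transcript was not run for want of transcript lengths. Counts per library were 66 to 130 for Dusp2, 87 to 588 for Dusp4 and 85 to 227 for Dusp10. The uncalled log2 fold changes of Mapk3 and Mapk8 changed sign when single libraries were left out, running from −0.0071 to 0.12 and from −0.018 to 0.064.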
